A study of Homo sapiens with 18 samples.

Results

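The measurement described here is how silencing of atypical protein kinase C altered the early transcriptional response of A549 cells to TGFβ. For each gene the change after 8 h of TGFβ in silenced cells was set against the change in control cells, as a difference of differences. Silenced cells at 8 h minus silenced cells without ligand gave one change, and control cells at 8 h minus control cells without ligand gave the other. It used 12 of the 18 arrays of the series, taken by their labels for siRNA and treatment, with 3 biological replicates in each of 4 groups. A549 is an established human non-small cell lung cancer line with epithelial character. Cells labelled siControl were transfected with a control siRNA, and cells labelled siPKCiz with siRNA against PKCiota and PKCzeta. All were grown in 10% serum and then starved of it. Treated cells met 250 pM TGFβ during 1 h, the ligand was washed off, and RNA was taken after another 7 h in 0.2% serum. The untreated groups had the same transfections and no ligand, and their labels give no time. Whether 1 or several siRNA sequences were used against each kinase is not given in the sources used here.

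TGFβ binds a pair of serine/threonine kinase receptors, which phosphorylate SMAD2 and SMAD3. These enter the nucleus with SMAD4 and act with other factors, among them AP-1, on target genes such as SMAD7, JUNB and SNAI1. In lung epithelial cells the ligand is known for starting an epithelial to mesenchymal transition, in which junction genes fall and matrix, integrin and contractile genes rise. PKCiota (PRKCI) and PKCzeta (PRKCZ) are the atypical protein kinases C, which need neither calcium nor diacylglycerol. They work with PAR6 and PAR3 in cell polarity, and the PAR6 complex binds TGFβ receptors at tight junctions.

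All values below are log2 of the deposited intensity, and a change is a difference of log2 values. The arrays had median intensities of 156.1 to 160.7. Precision rests on 3 arrays in a group. The summed intensity of 12 epithelial and A549 markers lay between 46009 and 66646 in the 4 groups. At 8 h the arms did not overlap in it, siControl lying between 46446 and 51078 and siPKCiz between 52686 and 56003, whereas they overlapped without ligand. The sums of 8 fibroblast, 8 leukocyte and 7 endothelial markers reached at most 1254, 1689 and 634. Without ligand the fibroblast sum was 1128 to 1254 in siControl and 1017 to 1124 in siPKCiz, and the leukocyte sum 1444 to 1574 and 1378 to 1411. The part of these marker sums in the results was not tested. PRKCI intensity in siPKCiz was 20.8% to 23.3% of the siControl array of the same replicate number. PRKCZ differed between the replicates: in siPKCiz it was 91.4% of siControl without ligand and 82.3% at 8 h in replicate 1, but between 33.1% and 37.2% in replicates 2 and 3. The difference of differences of the targets themselves was -0.05 ± 0.13 for PRKCI and 0.03 ± 0.34 for PRKCZ (± is the SE of the limma fit). Unless arrays are left out, that fit pools the spread of all arrays, those at 24 h included.

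Over all genes, 0 of 18377 had a called difference of differences (0% of genes, limma adjusted p under 0.05; the smallest adjusted p was 0.99967). Without adjustment 625 genes had p under 0.05 (3.40%), with 382 lower in siPKCiz (2.08%) and 243 higher (1.32%). The median SE of the difference was 0.14 log2 units. On simulated data of the same size, 94% of differences of 1 log2 unit and 100% of those of 2 log2 units were recovered. The responders defined below had a larger median SE, 0.28. Among them ODAPH (-1.79 ± 0.65, SE) and RASGRP1 (-1.07 ± 0.54) were not called, so the simulated shares need not hold for such genes. The mean 8 h change of both arms was called in 3391 genes (18.5%), of which 1458 rose and 1933 fell. Each arm alone gave 2087 called genes in siControl (11.4%) and 1191 in siPKCiz (6.48%).

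Genes whose mean change over both arms was called and reached 1 log2 unit are termed responders. This mean uses both arms equally, so that it favours neither a smaller nor a larger change in siPKCiz. There were 141 responders (0.767% of genes), 88 induced and 53 repressed. All 141 changed in the same direction in both arms, and 120 were called in both. Choosing genes by a large mean change favours both of these counts, which are a description only. Another 17 were called in siControl alone and 2 in siPKCiz alone, a contrast that is not itself a test of the difference. Across responders the changes of the arms, which share no array, had a Pearson correlation of 0.958, and over all 18377 genes of 0.815. Both are descriptions across genes that are not independent, and the first is over genes chosen for a large mean change. In RNA from whole cultures, fewer responding cells and a smaller response per cell cannot be told apart.

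A responder was to be termed damped or enlarged if its difference of differences was called, and kept if it was not called and its 95% interval lay within 1.5-fold either way. By these terms 0 were damped, 0 enlarged, 10 kept and 131 unresolved. Signed by the direction of the response, the median difference was -0.31 log2 units, and the siPKCiz change was at the median 79.0% of the siControl change. The change was smaller in siPKCiz in 111 responders and larger in 30. Of all 3391 genes with a called mean change it was smaller in 2313 and larger in 1078. Induced responders had a median signed difference of -0.35 and repressed ones -0.28. Over all genes with a called mean change the median was -0.07, and the siPKCiz change was at the median 81.6% of the siControl change. The relative change was thus similar in both sets. The median siControl change was 1.34 log2 units in responders and 0.37 in all genes with a called mean change.

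**Figure D1:**
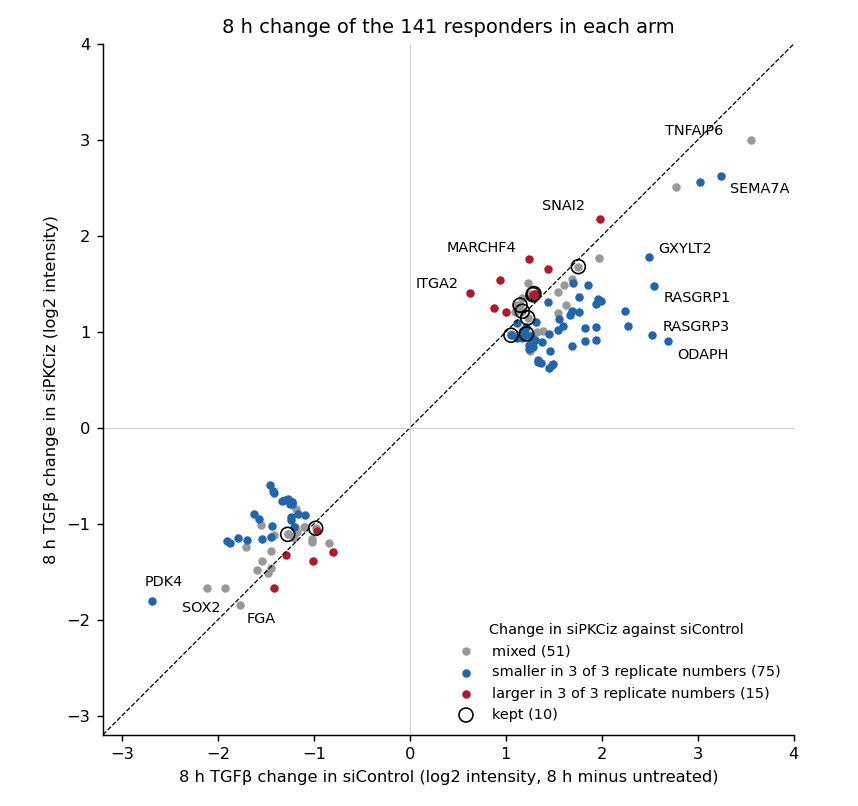
The 8 h change of each of the 141 responders is plotted for siControl (horizontal axis) against siPKCiz (vertical axis), both in log2 units, with the dashed line at equal change. Blue points (75) had a smaller change in siPKCiz in 3 of 3 replicate numbers, red points (15) a larger one, grey points (51) were mixed, and circles mark the 10 kept genes. Most points lie between the line and zero.

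By replicate number the median signed difference over responders was -0.16, -0.36 and -0.39 in replicates 1, 2 and 3 (SD 0.13, n = 3). Replicate 1 thus had the least negative median. The median response in siControl was 1.60, 1.30 and 1.34 log2 units in replicates 1 to 3, and in siPKCiz 1.49, 0.95 and 0.91. Replicate 1 had the largest response in both arms, and in siPKCiz it stood apart from replicates 2 and 3. The change was smaller in siPKCiz in 93, 105 and 112 of the 141 responders in replicates 1, 2 and 3. Of all 3391 genes with a called mean change it was smaller in 1663, 2310 and 2412. In 75 responders (53.2%) it was smaller in 3 of 3 replicate numbers and in 15 (10.6%) larger in 3 of 3. Among all genes with a called mean change these shares were 27.0% and 8.26%.

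**Figure D2:**
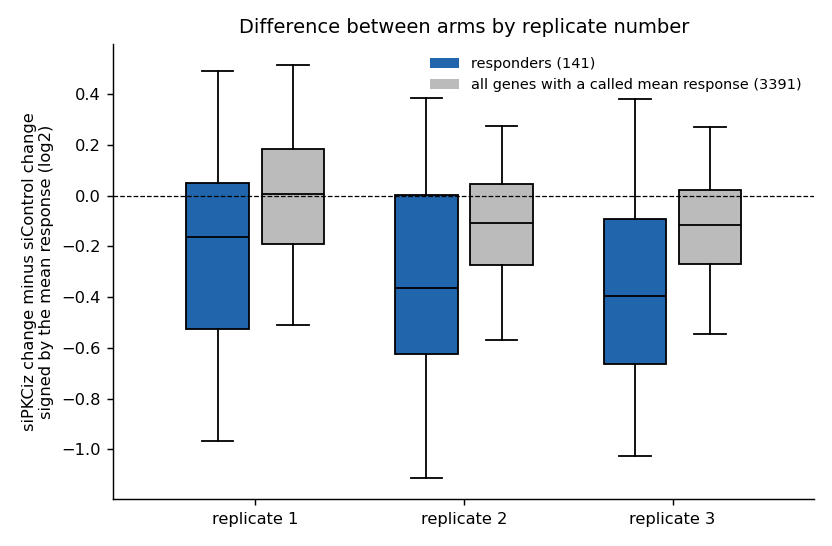
The siPKCiz change minus the siControl change, signed by the direction of the mean response (log2 units), is shown for each replicate number as boxes with the median and quartiles and whiskers from the 5th to the 95th percentile. The responders (blue, 141 genes) have medians of -0.16, -0.36 and -0.39, and all genes with a called mean change (grey, 3391 genes) lie nearer to zero.

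Replicate 1, in which PRKCZ was closest to its control level, was the replicate whose removal changed the calls. Without it 58 genes had a called difference (0.316% of 18377, 29 lower and 29 higher, 0.158% each, limma adjusted p under 0.05), and in 53 of them the difference ran toward a smaller response. With all arrays, 10480 of the 18377 genes and 2313 of the 3391 with a called mean change ran that way too. The fit without replicate 1 left only replicates 2 and 3 in each group. Its SEs and p-values, here and below, therefore rest on how alike those arrays were. It had 100 responders, of which 19 were damped, 0 enlarged, 22 kept and 59 unresolved. Of the 58 genes, 22 were also among the 141 responders. Without replicate 2, without replicate 3, or without any single array, 0 genes were called. Whether the level of PRKCZ in replicate 1, or the scatter of that replicate's arrays, has a part in this was not tested.

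The lowest difference among induced responders was that of ODAPH, a phosphoprotein known from enamel formation. In siControl its log2 intensity was 5.99, 5.75 and 5.995 without ligand (replicates 1 to 3) and 8.45, 8.58 and 8.79 at 8 h. In siPKCiz it was 6.05, 5.77 and 5.62 without ligand and 7.23, 6.402 and 6.53 at 8 h. The untreated arms overlapped, and at 8 h the 3 siPKCiz arrays lay below the 3 siControl arrays. The change was 2.69 in siControl and 0.91 in siPKCiz, a difference of -1.79 ± 0.65 (SE; 95% interval -3.14 to -0.43). It was -1.27, -2.20 and -1.88 in replicates 1 to 3. The SD was 0.14 to 0.45 in the 4 groups compared, but 1.37 in siControl and 0.80 in siPKCiz at 24 h. ODAPH was not called in the fit of all arrays, which pools the 24 h groups too. It reached -2.04 ± 0.16 without replicate 1, from replicates 2 and 3 alone (limma adjusted p = 1.97e-05). It also passed when the fit was limited to the 12 arrays (adjusted p = 0.0473), and it was the 1 gene called (0.00544% of genes) when the 3 differences by replicate number were tested against 0, a test added after seeing the data (adjusted p = 0.0415).

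RASGRP3 and RASGRP1, diacylglycerol-regulated exchange factors that activate Ras and Rap proteins, had the second and the fourth lowest difference, with TMEM88 (-1.22) between them. RASGRP3 went from 7.04, 7.64 and 7.90 to 10.27, 9.93 and 9.96 in siControl, and from 7.00, 8.31 and 8.41 to 9.46, 8.43 and 8.75 in siPKCiz. In siPKCiz its change was therefore 2.46 in replicate 1 but 0.11 and 0.34 in replicates 2 and 3. The difference was -1.55 ± 0.53 (SE), and -1.94 ± 0.16 without replicate 1 (limma adjusted p = 1.97e-05). RASGRP1 went from 6.18, 7.32 and 7.45 to 9.71, 9.61 and 9.28 in siControl and from 7.27, 7.44 and 7.55 to 9.75, 8.47 and 8.49 in siPKCiz. Its siPKCiz array of replicate 1 at 8 h lay above all siControl arrays, whereas replicates 2 and 3 lay below them. The RASGRP1 difference was -1.05, -1.26 and -0.89 by replicate, -1.07 ± 0.54 over all arrays and -1.07 ± 0.15 without replicate 1 (adjusted p = 0.00915).

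MXD1, a MAX partner that opposes MYC, had little spread within the 4 groups compared (SD 0.06 to 0.14). It rose from 9.44, 9.26 and 9.17 to 11.05, 11.16 and 11.13 in siControl, and from 9.51, 9.36 and 9.54 to 10.52, 10.29 and 10.31 in siPKCiz. The arms overlapped without ligand and stood apart at 8 h. The difference was -0.92 ± 0.27 (SE), and -1.08 ± 0.12 without replicate 1 (limma adjusted p = 0.00104). The SE of 0.27 also pools the 24 h groups, whose SDs were 0.55 in siControl and 0.31 in siPKCiz. MXD1 was not called over all arrays but was called in a fit of the 12 arrays alone. IL1A, the alarmin interleukin 1 alpha, rose by 1.98, 1.90 and 1.93 in siControl and changed by 0.99, 0.86 and 0.91 in siPKCiz. Its differences of -0.99, -1.04 and -1.03 were nearly equal over the replicates, and its SD was 0.08 to 0.28 in the 4 groups compared. The SE of 0.49 also pools the 24 h groups, whose SDs were 1.08 in siControl and 0.52 in siPKCiz. IL1A was not called over all arrays, nor in the fit of the 12 arrays alone. Without replicate 1 the IL1A difference was -1.03 ± 0.17 (adjusted p = 0.0221). MXD1, IL1A and the genes of the next sentence were chosen after their values were seen. TMEM88, a membrane protein that restrains WNT signalling (2.28 in siControl, 1.06 in siPKCiz), R3HDML (2.24 and 1.21), LCE3E (1.48 and 0.66) and the endothelial growth factor VEGFA (1.49 and 0.67) were also called lower without replicate 1.

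**Figure D3:**
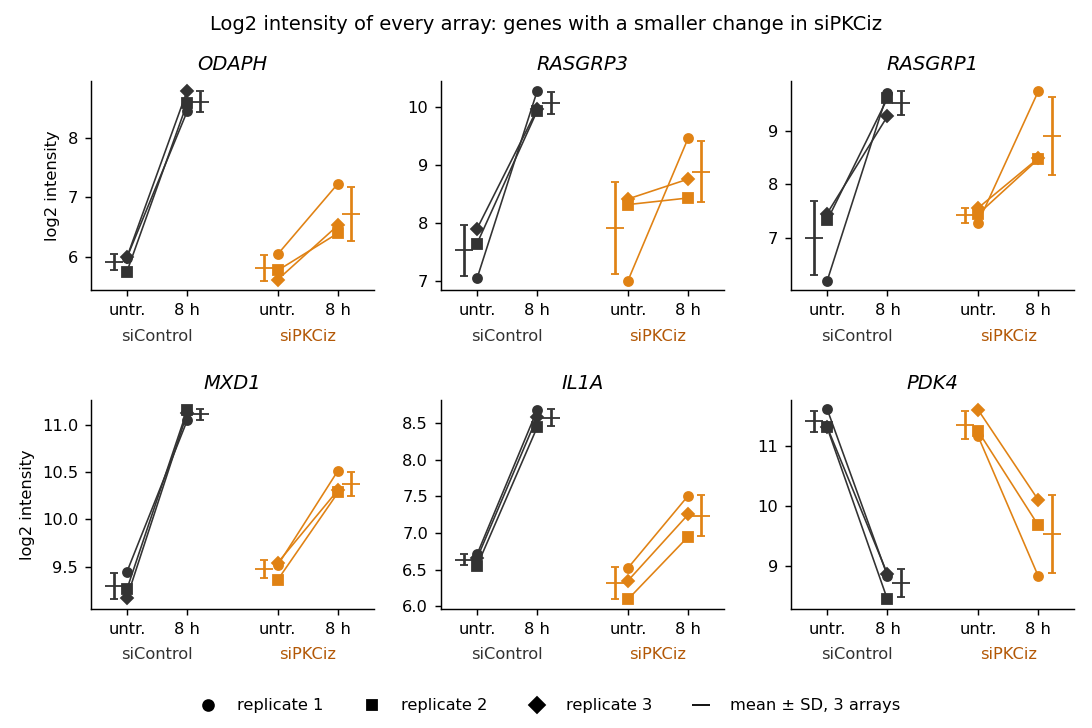
The log2 intensity of every array is plotted for ODAPH, RASGRP3, RASGRP1, MXD1, IL1A and PDK4, without ligand (untr.) and after 8 h of TGFβ, with lines that join arrays of the same replicate number and bars that give mean ± SD of 3 arrays. The slopes are flatter in siPKCiz, and replicate 1 (circles) has the steepest slope of the siPKCiz arm in each of the 6 genes.

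The 10 most risen responders include ODAPH, RASGRP3 and RASGRP1, and in the other 7 the siPKCiz change was 71.5% to 110.0% of that in siControl. TNFAIP6, which binds hyaluronan outside the cell, rose by 3.76, 3.51 and 3.40 in siControl and by 3.76, 2.58 and 2.65 in siPKCiz. Its arms were equal in replicate 1 and apart in the others, with a difference of -0.56 ± 0.63 (SE) over all arrays and -0.84 ± 0.13 without replicate 1 (limma adjusted p = 0.0141). SEMA7A, a membrane-anchored semaphorin, changed by 3.24 in siControl and 2.62 in siPKCiz, and ANGPTL4, an inhibitor of lipoprotein lipase, by 3.02 and 2.56. The cornified envelope gene LCE3D changed by 2.77 and 2.51, and SLN, which encodes the calcium pump inhibitor sarcolipin, by 1.97 and 1.77. GXYLT2, a xylosyltransferase that acts on Notch, had steady differences of -0.76, -0.74 and -0.63 (a change of 2.496 in siControl against 1.78). None of these was called over all arrays.

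Among repressed genes PDK4, whose product shuts off pyruvate dehydrogenase by phosphorylation, changed by -2.77, -2.86 and -2.45 in siControl and by -2.33, -1.57 and -1.502 in siPKCiz. At 8 h its siPKCiz array of replicate 1 (8.84) lay within the siControl range of 8.45 to 8.87, and replicates 2 and 3 (9.68 and 10.11) lay above it. The difference was 0.89 ± 0.46 (SE) and, without replicate 1, 1.12 ± 0.21 (limma adjusted p = 0.0371). The stem cell factor SOX2 changed by -2.05, -2.11 and -2.19 in siControl and by -2.30, -1.56 and -1.15 in siPKCiz, so that the sign of its difference turned between replicates. The nuclear receptor NR4A2 (-1.90 in siControl, -1.18 in siPKCiz) and GPCPD1 (-1.87 and -1.20) had smaller falls in 3 of 3 replicates. TM4SF20 (-1.93 and -1.67), the bile acid conjugating enzyme BAAT (-1.71 and -1.24), FGA (-1.77 and -1.84), GDF15 (-1.59 and -1.48), and the ETS factor EHF (-1.48 and -1.51) were unresolved. The polysialyltransferase ST8SIA4 (-1.41 and -1.67) had a larger fall in 3 of 3 and was unresolved too.

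In 10 responders, termed kept, the interval of the difference lay within 1.5-fold either way. IL11, a cytokine of the IL6 family, rose from 9.93, 9.89 and 10.13 to 11.36, 11.19 and 11.24 in siControl, and from 9.19, 8.97 and 9.42 to 10.67, 10.40 and 10.68 in siPKCiz. The arms did not overlap in either condition, siPKCiz being lower in both, and the rise was 1.28 and 1.39 (95% interval of the difference -0.27 to 0.48). CHRNA9, a nicotinic receptor subunit, rose by 2.23, 1.60 and 1.43 in siControl and by 2.22, 1.23 and 1.58 in siPKCiz (interval -0.58 to 0.43). JUN, a subunit of AP-1, rose by 1.15 and 1.28 (interval -0.28 to 0.54), and the integrin subunit ITGB3 by 1.05 and 0.96 (-0.57 to 0.40). The others were PLEK2 (1.29 and 1.40), the contractile protein SMTN (1.17 and 1.21), the hyaluronan link protein HAPLN3 (1.23 and 1.15), the formin DAAM1 (1.21 and 0.98), LGSN (-1.27 and -1.11) and the secreted kinase PKDCC (-0.98 and -1.05). Without replicate 3 the number of kept responders was 6.

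Promoter sequences are shown for ODAPH and RASGRP3, the called genes with the largest difference once replicate 1 is left out, and for the kept genes CHRNA9 and IL11. They are from RefSeq (GRCh38.p14), where 26 of the 36 genes named by rule had an entry. Each line gives the 250 bases before the annotated start, 5′ to 3′ on the gene's strand, at chr4:75555816-75556065 (+), chr2:33436098-33436347 (+), chr4:40335083-40335332 (+) and chr19:55370464-55370713 (-). Capitals mark matches, on both strands, to CAGACA, bound by SMADs, or TGANTCA, bound by AP-1.
ODAPH: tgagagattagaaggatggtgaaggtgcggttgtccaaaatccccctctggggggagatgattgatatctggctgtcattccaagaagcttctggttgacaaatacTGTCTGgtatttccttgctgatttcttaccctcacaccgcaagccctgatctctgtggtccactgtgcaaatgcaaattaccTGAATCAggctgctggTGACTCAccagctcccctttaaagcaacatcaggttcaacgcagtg
RASGRP3: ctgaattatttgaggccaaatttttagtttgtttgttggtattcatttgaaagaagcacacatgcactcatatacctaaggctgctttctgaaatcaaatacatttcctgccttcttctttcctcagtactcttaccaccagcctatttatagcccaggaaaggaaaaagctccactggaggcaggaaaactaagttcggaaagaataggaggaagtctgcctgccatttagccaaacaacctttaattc
CHRNA9: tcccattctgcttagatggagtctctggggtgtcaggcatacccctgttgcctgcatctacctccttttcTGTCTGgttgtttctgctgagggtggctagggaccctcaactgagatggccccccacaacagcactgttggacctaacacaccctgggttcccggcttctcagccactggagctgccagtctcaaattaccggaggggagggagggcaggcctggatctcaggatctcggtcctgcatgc
IL11: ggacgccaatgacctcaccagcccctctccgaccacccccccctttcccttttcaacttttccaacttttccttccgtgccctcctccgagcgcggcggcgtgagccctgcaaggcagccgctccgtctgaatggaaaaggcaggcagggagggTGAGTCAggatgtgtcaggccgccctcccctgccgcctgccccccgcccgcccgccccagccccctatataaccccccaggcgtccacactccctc
Over 300 bases, with 50 after the start, ODAPH held 2 matches to CAGACA and 2 to TGANTCA, RASGRP3 held 0 and 0, CHRNA9 1 and 0, and IL11 0 and 1. Of all 35116 promoters of that length, 16.9% held CAGACA and 7.71% held TGANTCA. The motifs do not overlap each other in these promoters. A match describes letters and says nothing of binding.

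Some responders changed more in siPKCiz. ITGA2, the collagen-binding integrin alpha 2, went from 12.68, 12.33 and 12.50 to 12.99, 13.03 and 13.36 in siControl, and from 11.56, 11.18 and 11.43 to 12.80, 12.76 and 12.83 in siPKCiz. The arms were apart by about a log2 unit without ligand and nearer at 8 h, with no overlap in either condition. The rise was 0.62 and 1.41, a difference of 0.78 ± 0.21 (SE), not called by limma. MMP1, interstitial collagenase (0.94 in siControl, 1.54 in siPKCiz), MARCHF4, a membrane-bound ubiquitin ligase (1.25 and 1.76), the sialomucin PODXL (0.88 and 1.25), the metalloproteinase ADAM19 (1.44 and 1.66) and the death ligand TNFSF10 (-0.80 and -1.29) were also larger in 3 of 3 replicates. These genes were chosen after their values were seen, and none was called.

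The levels behind the differences varied among genes. In the 75 responders with a smaller change in 3 of 3 replicates, the median signed difference between the arms was -0.02 without ligand and -0.54 at 8 h. Without ligand it was below 0 in 39 of them and above 0 in 36, and 62 were wider apart at 8 h. TIMP3, for example, stood 0.54 higher in siPKCiz than in siControl without ligand, with a difference of -0.11 at 8 h. The arms of the 75 did not overlap in 16 genes without ligand and in 39 at 8 h, beside 50 and 67 of all 141 responders. The share over all genes was not counted, so these numbers have no background to be read against. In the 15 with a larger change the median signed difference was -0.65 without ligand and -0.28 at 8 h, and 15 of 15 were wider apart without ligand. In induced members of that group siPKCiz thus began lower and ended lower. Because the groups were sorted by the difference of the same arrays, these medians and counts are a description only.

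**Figure D4:**
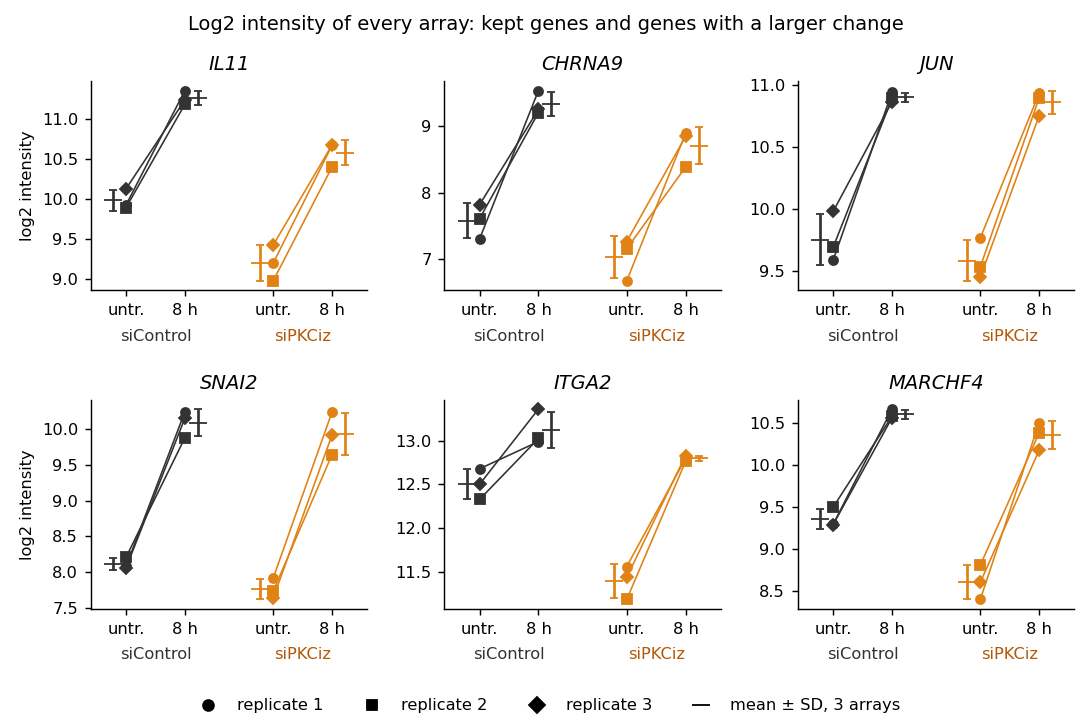
The log2 intensity of every array is plotted for the kept genes IL11, CHRNA9 and JUN and for SNAI2, ITGA2 and MARCHF4, as means ± SD of 3 arrays and lines per replicate number. Slopes are alike in the upper row. ITGA2 and MARCHF4 start lower in siPKCiz than in siControl and rise more steeply.

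Of the 10 genes with the smallest unadjusted p, none of which had a called difference, 6 had no called 8 h change in siPKCiz. Over all 18377 genes 6.48% had a called change in siPKCiz, so most genes had none. The 10 were also picked by a difference that contains the siPKCiz change, and the count is a description only. CLDN1, a tight junction claudin, fell by 0.65, 0.88 and 0.65 in siControl and changed by -0.27, -0.01 and -0.30 in siPKCiz (difference 0.53 ± 0.12, SE). The arms of CLDN1 overlapped in neither condition, with siControl higher without ligand and lower at 8 h. EPB41, which links spectrin and actin, changed by 0.70 and 0.03, GRIP2 by 0.47 and -0.08, the secreted protein ISM1 by 0.49 and -0.04, and the microRNA gene MIR503 by 0.49 and -0.22. The homeobox gene HOXB8 (-1.26 and -0.63) and the deubiquitinase USP2 (0.94 and 0.41) had a called change in both arms. ATOH8, a bHLH factor, had a change in siPKCiz (-0.47) and none called in siControl (-0.02). The potassium channel KCNK3 and the receptor GPRC5A, with opposite signs in the arms, are described in the closing section.

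Family by family, the TGFβ ligands and latent binding proteins had 8 risen and 2 fallen of 18 measured in the mean of both arms. The median signed difference of these 10 was -0.11, beside -0.07 over all genes with a called mean change. Of all those genes 27.0% were smaller in 3 of 3 replicates and 8.26% larger, the background for the family counts below. The activin subunit INHBA changed by 0.95 in siControl and 0.58 in siPKCiz, TGFB1 by 0.57 and 0.49, TGFB2 by 0.39 and 0.39, and the latent binding protein LTBP2 by 0.75 and 0.99. Of 12 receptors, 3 rose and 3 fell. TGFBR1, the type I receptor, went from 11.22, 11.51 and 11.54 to 12.12, 12.21 and 12.37 in siControl and from 10.92, 10.50 and 10.53 to 11.99, 11.71 and 11.62 in siPKCiz. Its rise was 0.81 and 1.12, larger in siPKCiz in 3 of 3 replicates, from a lower start. The co-receptor TGFBR3 (-1.70 and -1.17) and the type II receptor TGFBR2 (-0.94 and -0.66) had smaller falls in 3 of 3. SMADs and their inhibitors had 6 risen and 2 fallen of 18, with a median signed difference of -0.07. The inhibitors SMAD7 (0.98 and 0.97), SKIL (0.95 and 0.88), SMURF2 (0.89 and 1.00) and PMEPA1 (1.00 and 1.21) had no common direction. Of the 8, SMAD2 (-0.40 and -0.17) was smaller in 3 of 3 and PMEPA1 larger.

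TGFβ early target genes had the lowest median of the families reported with at least 5 called members. Of 30 measured 23 rose and 1 fell, and the median signed difference of these 24 was -0.38, with 13 smaller in 3 of 3 replicates and 2 larger. The differences are not scaled by the size of the response. The list held 11 responders among the 24, beside 141 among all 3391 genes with a called mean change. Responders had a median signed difference of -0.31, so the low median is no sign of an effect particular to the list. CCN1, a matricellular protein, rose by 1.88, 1.11 and 1.37 in siControl and changed by 0.74, 0.60 and 0.52 in siPKCiz. SPHK1, which makes sphingosine 1-phosphate, changed by 1.69 and 0.85, heme oxygenase HMOX1 by 1.17 and 0.58, PDGFA by 1.10 and 0.61, and GADD45B by 1.24 and 0.87. The PDGFB differences of -0.64, -0.66 and -0.69 were nearly equal over the replicates (1.99 and 1.33). CCN2, by contrast, changed by 0.92, 1.34 and 1.48 in siControl and 1.04, 0.75 and 0.61 in siPKCiz, and replicate 1 ran the other way. JUNB (1.25 and 1.40), HBEGF (0.69 and 0.74) and TGFBI (0.60 and 0.59) did not follow the median of the list. The list is thus not uniform, and it was chosen with earlier results of these data known.

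Of 15 BMP ligands, antagonists and ID genes 9 rose and 3 fell (median signed difference -0.13), with NOG, a BMP antagonist, at 1.11 and 0.79 and ID2 at -0.74 and -0.30. Of 18 factors that drive or oppose epithelial to mesenchymal transition 6 rose and 3 fell (-0.04). The sister genes SNAI1 and SNAI2, zinc finger repressors of E-cadherin, had differences of opposite sign, which were not tested against each other. SNAI1 rose by 2.45, 1.70 and 1.72 in siControl and by 1.58, 1.21 and 1.24 in siPKCiz (difference -0.61 ± 0.25, SE). SNAI2 rose by 2.17, 1.67 and 2.10 in siControl and by 2.33, 1.92 and 2.29 in siPKCiz (0.20 ± 0.25). For SNAI1 the siPKCiz arrays were higher than siControl without ligand (7.82 to 7.95 against 7.29 to 7.61), and at 8 h the arms overlapped. ZEB1 (0.40 and 0.22) and TCF4 (0.58 and 0.13) were smaller in 3 of 3. Among 15 SOX genes 2 rose and 3 fell (-0.31), with SOX9 at -0.47 and -0.16.

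Junction genes differed among themselves. E-cadherin, CDH1, changed by -0.96 and -0.77, N-cadherin CDH2 by 0.37 and 0.41, and of 13 cadherins and catenins 2 rose and 2 fell (-0.01). Of 19 tight junction genes 3 rose and 5 fell (-0.12). Besides CLDN1, CLDN4 (1.54 and 1.01) and the adhesion protein CXADR (-0.996 and -0.58) were smaller in 3 of 3. The polarity proteins and partners of the atypical kinases had 1 risen and 6 fallen of 20, with a median signed difference of -0.31. The 6 that fell were smaller in siPKCiz in 3 of 3 replicates: PARD6A (-0.78 and -0.38), PARD6B (-0.61 and -0.23), WWC1 (-0.56 and -0.13), ECT2 (-0.59 and -0.28), PARD3 (-0.35 and -0.25) and LLGL2 (-0.51 and -0.45). Of all genes with a called mean change 27.0% were smaller in 3 of 3, and the list was chosen with earlier results known. PARD6B, which encodes a PAR6 protein, changed by -0.62, -0.65 and -0.58 in siControl and -0.02, -0.38 and -0.27 in siPKCiz. Of 22 keratins and epithelial markers 3 rose and 6 fell (-0.04), with KRT19 at -0.45 and -0.40. Of 13 PKC isoforms and related kinases 4 rose and 1 fell (-0.09).

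**Figure D5:**
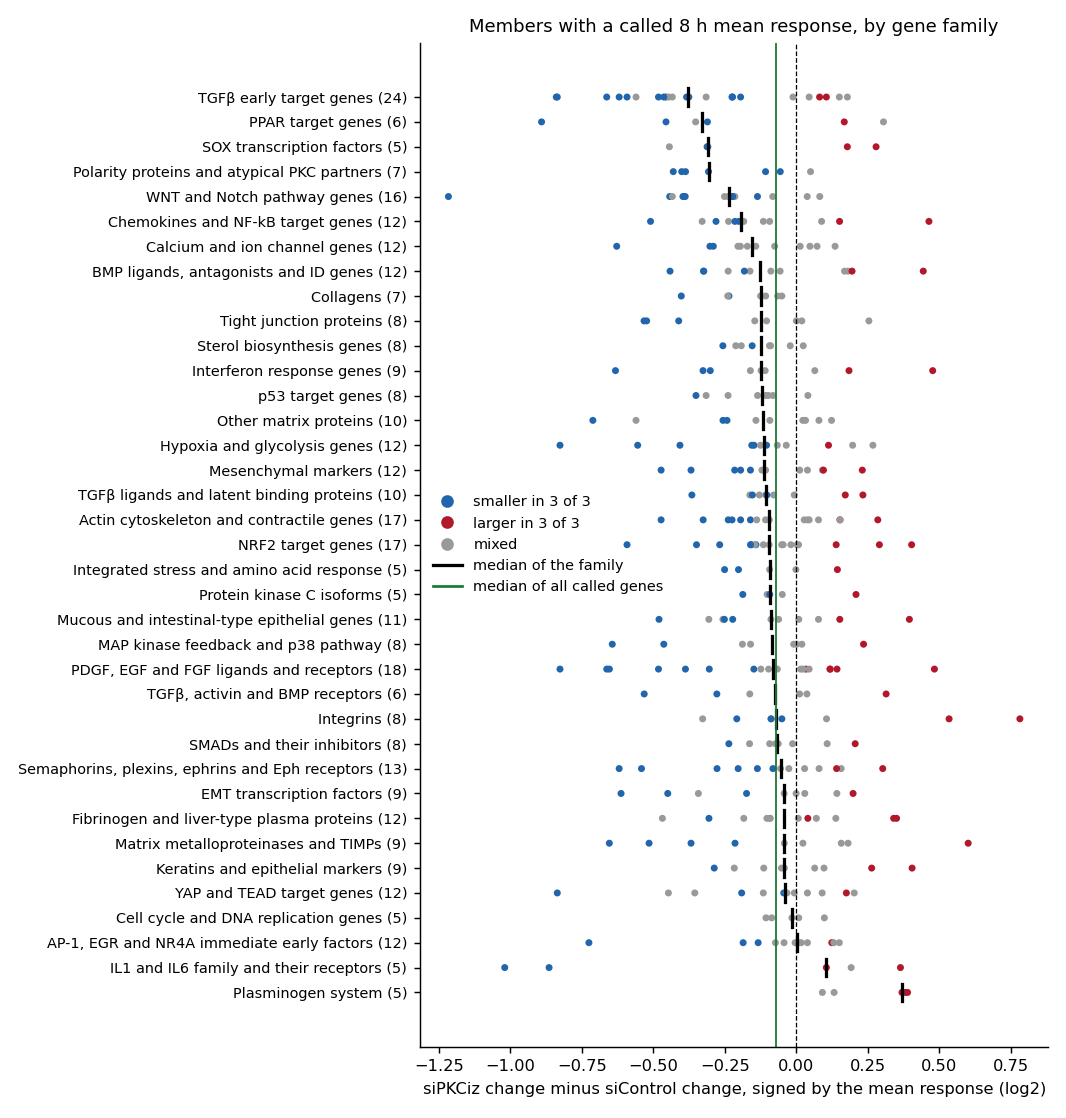
Each point is a gene with a called mean 8 h change, placed by the siPKCiz change minus the siControl change, signed by the mean response (log2 units), for the families reported with at least 5 such genes (number in parentheses). Blue, red and grey mark smaller, larger and mixed over the 3 replicate numbers, black bars the family medians and the green line the median of all called genes, -0.07. TGFβ early targets have the lowest median (-0.38) and the plasminogen system the highest (0.37). Differences are not scaled by the size of the response.

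Mesenchymal markers had 12 risen and 0 fallen of 20 (median signed difference -0.11), with 5 smaller in 3 of 3 replicates and 2, LOXL2 and SPARC, larger. The smooth muscle proteins TAGLN (1.70 and 1.51) and CNN1 (1.17 and 1.01) and gelatinase MMP2 (1.86 and 1.49) were smaller in 3 of 3 replicates, and vimentin, VIM, changed by 0.50 and 0.39. CALD1, an actin-binding protein, rose by 0.88, 1.01 and 0.96 in siControl against 0.72, 0.32 and 0.40 in siPKCiz, and was called lower without replicate 1 (-0.63 ± 0.12, limma adjusted p = 0.0433). Collagens had 6 risen and 1 fallen of 23 (-0.13), with COL4A1 at 1.54 and 1.42 and COL1A1 at 1.17 and 0.93. Other matrix proteins had 8 risen and 2 fallen of 29 (-0.12). Actin cytoskeleton and contractile genes had 14 risen and 3 fallen of 30 (-0.10), with tensin TNS1 at 1.69 and 1.55 and TPM1 at 0.56 and 0.60.

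Among proteases, of 19 matrix metalloproteinases and their inhibitors 8 rose and 1 fell (-0.04). TIMP3, a matrix-bound inhibitor, rose by 2.34, 1.79 and 1.70 in siControl and by 1.63, 1.11 and 1.12 in siPKCiz, a difference of -0.65 ± 0.23 (SE), and MMP9 changed by 0.78 and 0.26. MMP10 changed by 1.17 and 1.35. ADAM and ADAMTS proteases had 3 risen of 18 (0.11). In the plasminogen system 5 of 12 rose and 0 fell, and it had the highest family median, 0.37, with 3 larger in 3 of 3 replicates and 0 smaller. Among all genes with a called mean change 8.26% were larger in 3 of 3 and 27.0% smaller. PLAU, urokinase, changed by 0.42, 0.12 and 0.24 in siControl and by 0.95, 0.44 and 0.56 in siPKCiz. Its receptor PLAUR changed by 0.39, 0.66 and 0.65 in siControl and by 0.73, 1.04 and 1.08 in siPKCiz. The serpin SERPINB8 changed by 0.16 and 0.53, and PLAT, the tissue activator, by 0.47 and 0.61. PLAU, PLAUR and SERPINB8 were lower in siPKCiz in each untreated array, and PLAU went from 11.21, 11.12 and 11.12 in siControl and 10.27, 10.52 and 10.55 in siPKCiz to ranges at 8 h of 11.24 to 11.64 and 10.96 to 11.22. Integrins had 6 risen and 2 fallen of 19 (-0.07), with 3 smaller in 3 of 3 replicates (ITGA10, ITGA11 and ITGB3) and 2 larger, ITGA2 and ITGB8 (-0.53 and -1.06).

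Growth factors of the PDGF, EGF, FGF and VEGF families and their receptors had 12 risen and 6 fallen of 28 (-0.08), with 7 smaller in 3 of 3 replicates and 5 larger. Beside PDGFA, PDGFB and VEGFA, FGF1 was smaller in 3 of 3 (1.30 and 0.92), and EREG, epiregulin, changed by -1.06 and -0.40. NRG1, neuregulin, had a change in siPKCiz (0.50) and near 0 in siControl (0.02), and FGF2 was at 0.66 and 0.78. MAP kinase feedback and p38 genes had 1 risen and 7 fallen of 21 (-0.08). DUSP4, a MAP kinase phosphatase (-0.92 and -0.45), and MAP2K6, which activates p38 (-1.79 and -1.14), were smaller in 3 of 3, while SPRY2 was at -0.42 and -0.42. The AP-1, EGR and NR4A factors had 9 risen and 3 fallen of 22 with a median of 0.00. FOSB changed by 0.76 and 0.72, KLF6 by 0.25 and 0.26 and MAF by 0.72 and 0.72, whereas MYC (0.45 and 0.27), NR4A1 (-0.59 and -0.46) and NR4A2 were smaller in 3 of 3.

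In the IL1 and IL6 families 3 rose and 2 fell of 17 (0.10). IL1A and CRLF2, a receptor chain for TSLP (-1.46 and -0.59), were smaller in 3 of 3, and IL11 and IL6R (-0.38 and -0.74) larger. Chemokines and NF-kB target genes had 4 risen and 8 fallen of 26 (-0.19), with TNFAIP2 at -0.95 and -0.44 and the chemokine CXCL1 at -1.18 and -1.09. RELB changed by 0.18 and 0.64, larger in 3 of 3. Interferon response genes had 1 risen and 8 fallen of 29 (-0.12), with the RNA sensor RIGI at -0.97 and -0.34 and IFIT1 at -0.36 and -0.83. Of 24 genes activated by YAP and TEAD, 10 rose and 2 fell (-0.04). Of these CCN1 and CCN2 were called lower without replicate 1 (-0.69 and -0.73) and ANKRD1 higher (0.62). In replicate 1 the ANKRD1 difference ran the other way (-0.50). Over all arrays ANKRD1 changed by -0.36 in siControl and -0.11 in siPKCiz, a difference of 0.25. F3 was at 0.77 and 0.65 and DLC1 at 0.46 and 0.42.

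Of 29 WNT and Notch pathway genes 10 rose and 6 fell, with a median signed difference of -0.23, 8 of these 16 smaller in 3 of 3 replicates and 0 larger, against 27.0% and 8.26% of all genes with a called mean change. WNT7A changed by 1.29 and 0.84, the WNT feedback inhibitor NKD1 by 0.87 and 0.48, DKK1 by -0.65 and -0.26, and the Notch target HES1 by 0.60 and 0.20, whereas NOTCH2 was at 0.38 and 0.46. Semaphorins, ephrins and their receptors had 4 risen and 9 fallen of 29 (-0.06), with SEMA3A at -1.30 and -0.76. Ion channel and calcium genes had 6 risen and 6 fallen of 22 (-0.16), with the sensory channel TRPA1 at -1.15 and -0.52.

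Among metabolic families, PPAR target genes had 3 risen and 3 fallen of 16 (-0.33), led by PDK4 and ANGPTL4, with ACSL1 at 0.60 and 0.28. Hypoxia and glycolysis genes had 7 risen and 5 fallen of 23 (-0.11), with the histone demethylase KDM6B at 1.76 and 1.21. Sterol biosynthesis genes had 0 risen and 8 fallen of 17 (-0.12), with MVK at -0.66 and -0.44 and ACAT2 at -0.49 and -0.47. NRF2 target genes had 1 risen and 16 fallen of 28 (-0.10), with the export pump ABCC2 at -0.88 and -0.53 and GCLC at -0.52 and -0.52. The amino acid and stress response had 0 risen and 5 fallen of 22 (-0.09), and p53 target genes 5 risen and 3 fallen of 18 (-0.12).

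Genes of the liver-like and mucous program had medians near that of all called genes. Of 25 plasma protein genes 1 rose and 11 fell (-0.04), with 1 smaller in 3 of 3 replicates and 3 larger. FGA went from 10.02, 9.57 and 9.64 to 8.27, 7.91 and 7.73 in siControl and from 10.59, 11.09 and 11.08 to 8.55, 9.27 and 9.42 in siPKCiz. It stood higher in siPKCiz in both conditions, without overlap, and its fall was 1.77 and 1.84 log2 units. FGB changed by -1.29 and -1.33 and FGG by -0.74 and -1.08. Of 26 mucous and intestinal-type genes 1 rose and 10 fell (-0.09), with ANXA13 at -1.45 and -1.46 and AGR2 at -1.42 and -1.11. The LCE genes had 2 risen of 25, LCE3D and LCE3E, close relatives whose probes may share signal. Cell cycle genes had 3 risen and 2 fallen of 36 (-0.02), and histones and ribosomal proteins 0 risen and 1 fallen of 18.

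At 24 h the same arms gave differences of differences of -1.11 ± 0.65 (SE) for ODAPH, -1.31 ± 0.53 for RASGRP3, -1.20 ± 0.49 for IL1A and 0.76 ± 0.46 for PDK4. Those of RASGRP1 (-0.37 ± 0.54), TMEM88 (-0.39 ± 0.50), MXD1 (-0.50 ± 0.27), SNAI1 (-0.13 ± 0.25) and TIMP3 (-0.08 ± 0.23) were nearer 0 than at 8 h. Among genes with a larger change in siPKCiz at 8 h, SNAI2 was at 0.51, ITGA2 at 0.54 and MMP1 at -0.02. None of these 24 h differences was called (limma adjusted p = 0.9997 for each), and the genes were chosen after their values were seen. These values share the untreated arrays with those at 8 h.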

How the data were processed

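Per the labels' protocols, 200 ng of total RNA per sample was labelled with an Affymetrix whole-transcript protocol and hybridised to 1 array. RMA and Partek are the tools that the submitters' processing notes name for the authors' steps; their versions are not given in the sources used here. Intensity was deposited on a linear scale, from 21.2 to 51230, although log2 values had been assumed in planning. Log2 was taken, with no other normalization. RMA evens out array distributions, which can remove a shift common to most genes.

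Of 28869 probe sets the 19310 with 1 gene symbol were used (1752 had several and 7807 had none listed), the brightest per gene, which left out 933 and gave 18377 genes. Genes were fitted with limma 3.58.1 in R 4.3.3 on 6 group means over all 18 arrays (12 residual, 18.1 total degrees of freedom, trend and robust off), with Benjamini-Hochberg adjustment over all genes and calls at 0.05. The fit was tested on simulated data. Members, families (46 lists, 890 of 962 distinct genes measured) and tests were chosen with earlier results of these data known; 1 list is not reported here.

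Named by rule were PRKCI and PRKCZ, the 10 genes of smallest p, the 10 most risen and 10 most fallen responders, and up to 2 kept members per family. Since no gene was called, no rule took called genes, and members named for their families were chosen after their values were seen. Alternatives covered the replicate block, normalization, moderation, array weights, probe sets, dim genes, responder choice and left-out arrays. Figures were drawn with matplotlib.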

Additional observations from a re-analysis of the deposited data

Results flagged for a closer look

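KCNK3, a potassium channel, and GPRC5A, a receptor abundant in lung epithelium, had 8 h values of opposite sign in the arms in each replicate number, as did the secreted protein ISM1, some of them near 0. KCNK3 was at 0.62, 0.09 and 0.02 in siControl and -0.59, -0.33 and -0.33 in siPKCiz, with a difference of differences of -0.66 log2 units. GPRC5A was at -0.28, -0.14 and -0.29 in siControl and 0.11, 0.55 and 0.29 in siPKCiz, with a difference of 0.55. ISM1 was at 0.74, 0.32 and 0.42 in siControl and -0.08, -0.02 and -0.03 in siPKCiz, with a difference of -0.53. None of the 3 differences was called by limma over all genes, and the opposite signs themselves were not tested. KCNK3 in replicate 1 had the widest gap, -1.21, against -0.42 and -0.35 in the others.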

How the results depend on the processing

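The median signed difference over responders was negative under each alternative run, from -0.41 to -0.17 with replicates or arrays left out. It was -0.17 without the siPKCiz 8 h array of replicate 3, -0.16 with responders of at least 1.5-fold and -0.11 with responders chosen by siPKCiz, a choice that shares arrays with the difference. With replicates or arrays left out, called genes ranged from 0 to 58 (0 to 29 lower and 0 to 29 higher), responders from 100 to 181, damped from 0 to 19, kept from 6 to 22 and unresolved from 59 to 174. The 58 calls came without replicate 1, where 1576 genes had unadjusted p under 0.05. A fit of the 12 arrays alone called 2 genes, ODAPH and MXD1, both lower and so 2 damped, with 19 kept. Array weights gave 24 kept and 83 unresolved, and called 0 genes with 1441 at unadjusted p under 0.05. Choosing responders by siControl gave 214, of which 199 were unresolved. A mean change of at least 1.5-fold gave 622, with 207 kept and 415 unresolved.

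The replicate numbers did not pair the arrays by deviations over all genes, whose correlations between arrays of the same number ran from -0.51 to 0.26. Over responders the deviations of the 8 h changes of the arms correlated at 0.78, 0.74 and 0.63 for numbers 1 to 3, a hint from the data and not the design. The additive replicate block called 0 genes, with 482 at unadjusted p under 0.05 and 7 kept. A replicate block with its own arm and ligand terms, which tests the 3 differences by number and was added after seeing the data, called 1 gene, ODAPH (-1.79, limma adjusted p = 0.0415).

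For the genes named by rule, 811 alternative values kept their direction and side of the threshold, 7 passed it and 37 of 9 genes changed sign. Signs changed for PRKCZ under array weights (-0.0072) and for EHF under quantile normalization (0.062) and array weights (0.016). With arrays left out the ranges that crossed 0 were -0.22 to 0.27 for PRKCZ, -0.24 to 0.19 for FGA, -0.20 to 0.59 for GDF15, -0.30 to 0.43 for EHF, -0.44 to 0.22 for SLN, -0.0066 to 0.22 for IL11, -0.15 to 0.019 for ITGB3, -0.013 to 0.29 for JUN and -0.26 to 0.086 for CHRNA9. None of these 9 differences was called. Depth has no meaning for arrays, and precision rests on 3 arrays per group, or fewer where arrays are left out.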
